A study of Mus musculus with 8 samples.

Results

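The comparison described here is that of wild-type (WT) 3T3-L1 cells after and before the start of fat cell induction. 3T3-L1 is a line of mouse fibroblast-like preadipocytes that can be turned into fat cells in culture. The WT arrays of days +2 and +4 (2 arrays, "after") were set against the WT arrays of days -2 and 0 (2 arrays, "before"), 4 of the 8 arrays of the series. The other 4 arrays carry the same days of a 3T3-L1 line with a stably transfected short hairpin RNA, shRNA-8, against the long noncoding RNA slincRAD (sh8). Per the labels, all cells were grown in 10% newborn calf serum to confluence, which is day 0. They were then given medium with insulin (167 nM), dexamethasone (1 µM) and 3-isobutyl-1-methylxanthine (0.5 mM), changed every other day. The WT cells carry no transfected construct, so the labels give no empty-vector control for sh8. Each line is 1 culture series with 1 array for each day, and nothing states that the days came from separate cultures. The p-values therefore measure the spread between days within a period, which may be technical in part. Both lines' arrays of days -2 and 0 belong to 1 scan and those of days +2 and +4 to another. The period and the scan, or a slide that may go with it, therefore cannot be told apart.

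Every value called a level below is the log2 processed intensity of a probe minus the 75th percentile of its array, so a level of 0 is that percentile. A change is the mean level of days +2 and +4 minus the mean level of days -2 and 0, in log2 units. Of 26461 genes and unnamed transcripts tested, 20824 were well above background on both WT arrays of days -2 and 0 (14371 of them named), and these are the genes compared. Another 1754 (1070 named) were above background on neither of those arrays and on both later ones. They rose from background and are given apart, because their fold changes are only lower bounds. Their choice from these same arrays fixes the direction of the change, so a call among them cannot support a rise. Of the 20824, 20492 were above background on all 4 WT arrays, 213 on 1 later array and 119 on neither.

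The induction medium acts through several known routes. Dexamethasone activates the glucocorticoid receptor, which binds DNA and turns on genes such as Fkbp5 and Tsc22d3. 3-Isobutyl-1-methylxanthine blocks phosphodiesterases, so cyclic AMP builds up and activates the factor CREB, and insulin at this dose also acts through the IGF-1 receptor. Confluent 3T3-L1 cells given this medium are known to re-enter the cell cycle for a short time, the mitotic clonal expansion. The factors C/EBPβ and C/EBPδ come first in the program, and PPARγ and C/EBPα follow and turn on the genes of fat storage. 

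Transcripts that do not belong to a fibroblast line lay on the later arrays. Of 22 lung epithelium markers tested, 8 were above background on both earlier WT arrays and 21 on both later ones, and 16 rose past the threshold of an adjusted p of 0.05 (limma). Of all 26461 genes tested 11.1% did so. The marker counts here include genes not above background before, and a call among those that rose from background cannot support a rise. The summed linear signal of the lung markers, in multiples of the array's 75th percentile, was 12.03 on day -2, 11.3 on day 0, 24.4 on day +2 and 31.2 on day +4. Most of the 2 earlier sums was Lamp3, the brightest of these markers on all 4 arrays (3.35, 3.22, 3.54 and 3.71). Lamp3 changed by 0.34 ± 0.19 and did not pass, so the sums understate the rise of the other lung markers. Sftpc, which encodes the surfactant protein C of alveolar type II cells, had levels of -7.52, -7.93, 1.03 and 1.53 on days -2, 0, +2 and +4, at least 146-fold higher after than before. The red blood cell sum went from 0.772 and 0.775 to 5.09 and 4.82 (6 of 7 markers rose). That of leukocytes went from 15.03 and 14.6 to 27.6 and 29.7 (13 of 24). Most of its rise was 1 gene, Ear2, with levels of -3.62 and -2.83 before and 3.42 and 3.70 after. Itgam and Aif1, also leukocyte markers, changed by -0.22 and -0.52 and did not pass. The endothelium sum went from 1.84 and 1.84 to 3.34 and 5.17 (8 of 14). The muscle sum did not rise, at 1.00 and 0.470 before and 0.742 and 0.935 after. On day -2 it was mostly Acta1 and Tnnt2, which went from -0.89 and -1.68 on that day to -2.26 and -3.80 on day 0. Of 11 muscle markers 4 rose and 1 fell: Acta1, skeletal muscle actin, changed by -3.20 ± 0.64, and among those that rose was Myh6, the heart muscle myosin heavy chain, at -4.88 and -4.77 before and -1.57 and -1.14 after. In sh8 the same sums moved the same way, the lung sum from 9.76 and 11.4 to 30.8 and 38.0. The markers of the line itself were in place: 27 of 30 tested preadipocyte and progenitor markers were above background on both earlier WT arrays, with summed signals of 522, 694, 561 and 594 over the 4 days. The part that these other transcripts play in any rise reported here was not tested. In bulk RNA, fewer cells of a type and less RNA per cell cannot be told apart.

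**Figure D1:**
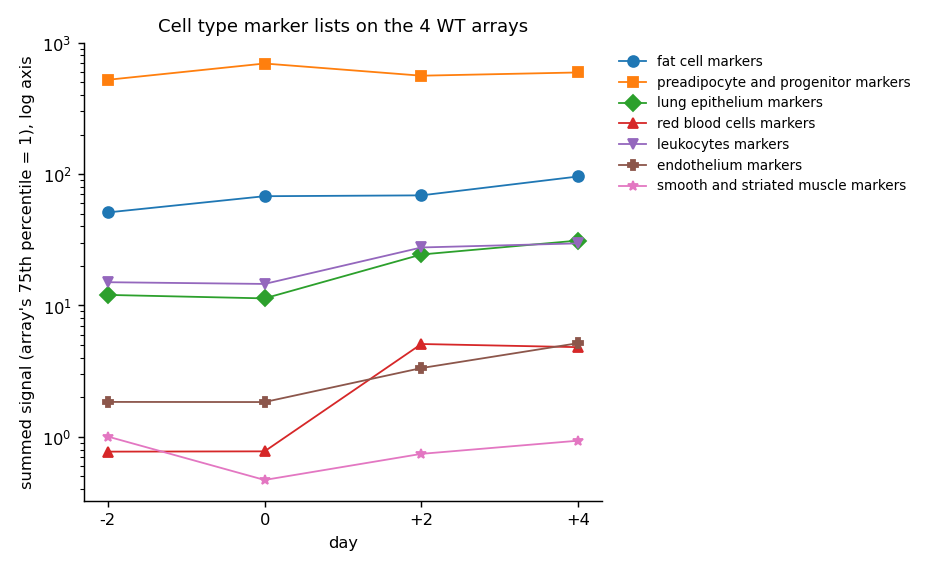
Summed linear signal of the marker genes of each cell type (log axis, multiples of the array's 75th percentile) on the 4 WT arrays by day, 1 array for each point. The lung, red blood cell, leukocyte and endothelium sums are higher on days +2 and +4 than on days -2 and 0, with the lung sum at 12.03 and 11.3 before and 24.4 and 31.2 after. Most of the earlier lung sum is 1 gene, Lamp3, which is bright on all 4 arrays. Most of the rise of the leukocyte sum is 1 gene, Ear2.

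Among the 20824 genes, 1441 were called higher after induction and 1176 lower at an adjusted p under 0.05 (limma, 4 residual degrees of freedom over the 8 arrays). These are 6.92% and 5.65% of the genes compared, and of all 26461 tested 11.1% were called higher and 4.58% lower. The shares of the genes compared are the base for the count of every list below. Of those called higher 909 had changed at least 2-fold, and of those called lower 941. Both later arrays lay above both earlier ones for 7724 genes (37.1%) and below them for 5343 (25.7%). Both lines share the days, and where they moved alike between days their arrays are not separate estimates of the spread. The fit does not allow for this. With the 4 WT arrays alone the calls were 911 higher and 826 lower. The median change was 0.10 over the genes compared and 0.18 over all tested. With quantile normalization the median over all tested was 0.07, and the calls were 946 higher and 1270 lower, so that the higher share of all calls went from 55.1% to 42.7%. In the authors' own value table it was 42.6%, with 971 higher and 1306 lower. The counts rest on every one of the 4 arrays: without day -2 they were 368 higher and 501 lower, without day 0 717 and 640, without day +2 239 and 312, and without day +4 70 and 63.

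The genes that rose were mostly dim before induction. Their median level on days -2 and 0 was -3.48, against -0.84 for the genes that fell and -0.88 for all genes compared. Of the 8274 genes at or above the 75th percentile on both earlier arrays, 216 (2.61%) rose and 459 (5.55%) fell. Of the other 12550 genes, 1225 (9.76%) rose and 717 (5.71%) fell.

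**Figure D2:**
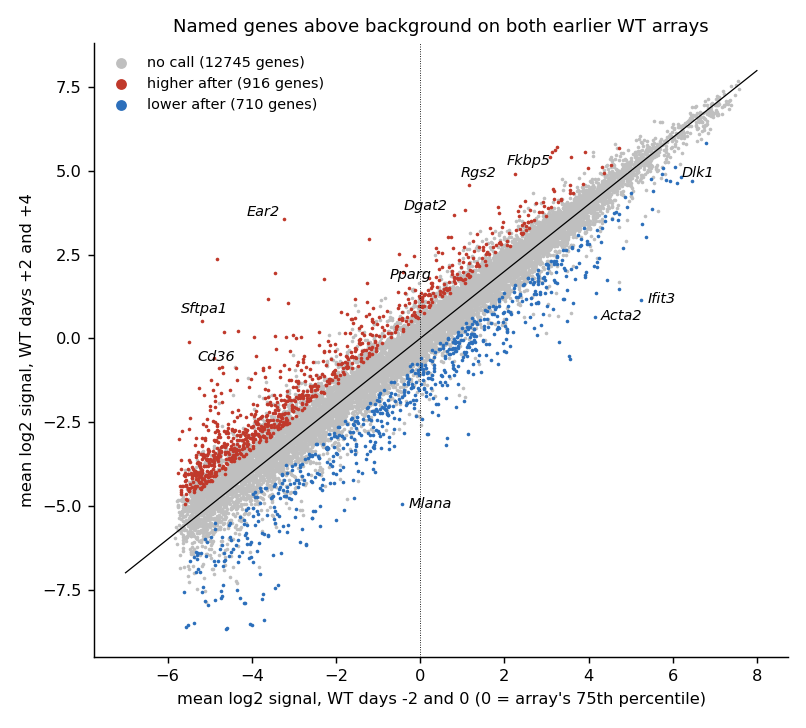
Mean level of days +2 and +4 against mean level of days -2 and 0 for the 14371 named genes compared in WT (both axes log2 relative to the array's 75th percentile, diagonal line for no change), with the 916 named genes called higher in red and the 710 called lower in blue. The higher calls crowd at the dim end of the horizontal axis and the lower calls spread along it.

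The regulators of fat cell formation changed little as a group, and PPARγ itself rose. Of 25 adipogenic transcription factors compared, 3 rose, 1 fell and 21 did not pass the test, with a median change of 0.18 beside 0.10 for all genes. Pparg, the gene of PPARγ, had levels of 0.57 and 0.57 before and 1.63 and 1.64 after, a rise of 1.07 ± 0.16 (SE) or 2.09-fold (adjusted p = 0.0120, limma). Both later arrays stood above both earlier ones by about the same amount. Its partner receptor Rxra rose by 0.84 ± 0.17, from -2.37 and -2.09 to -1.39 and -1.38. Srebf1, a regulator of fatty acid synthesis genes, rose by 1.11 ± 0.20, from -2.82 and -2.38 to -1.53 and -1.45. Klf2, which is known to hold back Pparg, fell by 1.81 ± 0.30, from 1.97 and 1.31 to -0.14 and -0.19. Without day -2, day +2 or day +4 none of the 25 passed, and without day 0 3 rose and 2 fell.

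The C/EBP factors did not pass the test. Cebpb was among the brightest genes throughout, at 6.53 and 6.64 before and 6.81 and 6.63 after, a change of 0.13 ± 0.21 that was -0.02 with the normexp background correction. Cebpd stood at 6.04 and 5.81 before and 6.11 and 6.11 after (0.18 ± 0.24). No array lies within the first hours after induction. Cebpa, the later partner of PPARγ, was dim, at -4.13 and -4.53 before, -4.12 on day +2 and -3.50 on day +4 (0.52 ± 0.28, adjusted p = 0.254, limma), and its highest level was that of day +4.

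Among fat cell genes Cd36, resistin, the glycerol channel Aqp7 and Pparg rose. Of 16 fat cell markers above background before, 4 rose and none fell, with a median change of 0.87. Cd36, a fatty acid transporter, had levels of -4.48 and -4.29 before, -1.90 on day +2 and 0.15 on day +4, a rise of 3.51 ± 0.64 (11.4-fold, adjusted p = 0.0187, limma). Retn, the hormone resistin, went from -4.51 and -4.21 to -2.54 and -2.15 (2.02 ± 0.26). Aqp7, the channel that lets glycerol out of fat cells, went from 0.85 and 0.65 to 2.05 and 2.36 (1.45 ± 0.27). Pparg is the last of the 4. Fabp4, the fat cell fatty acid carrier, stood at 3.63 and 3.25 before, 4.16 on day +2 and 5.18 on day +4, and its 1.23 ± 0.44 did not pass (adjusted p = 0.113, limma). Lpl, lipoprotein lipase, was bright from the start and moved less than its spread between days, at 4.49 and 5.29 before and 4.73 and 4.87 after. Adrb3, another marker, went the other way, from -3.37 and -3.67 to -4.75 and -5.01. Its -1.36 ± 0.36 did not pass (adjusted p = 0.0546, limma). With the 4 WT arrays alone 3 fat cell markers rose and 1 fell. A term for each day, or the need for all 8 arrays above background, also gave 1 fall.

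Another 5 of the fat cell markers came up from background, and 4 of these were past the threshold (Adipoq, Cfd, Slc2a4 and Car3). The way this class was chosen fixed their direction, so passing adds no support for a rise. Adipoq, the hormone adiponectin, was at -6.77 and -6.69 before, -4.51 on day +2 and -1.5 on day +4, at least 7.51-fold higher after. Cfd, the protease adipsin, went from -7.57 and -7.85 to -4.42 and -2.64, at least 5.21-fold higher. Slc2a4, the insulin-responsive glucose transporter GLUT4, went from -6.90 and -7.35 to -5.55 and -5.05, at least 1.53-fold higher. Plin1, the coat protein of the fat cell lipid droplet and above background on 1 of the earlier arrays, went from -6.04 and -5.40 to -4.17 and -2.50. For each of them day +4 was the highest of the 4 arrays. Cd36 and Pparg are also made by lung macrophages and Cd36 by endothelium, and the lung, leukocyte and endothelium sums rose over the same days. How much of these rises came with those transcripts was not tested. The fat cell calls fell from 4 to 1 without day -2, 2 without day 0, 3 without day +2 and 0 without day +4.

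Both enzymes of the last step of triglyceride synthesis rose. Of 22 genes for triglyceride synthesis and lipid droplets compared, 6 rose and none fell, with a median change of 0.45. Dgat2, which adds the last fatty acid to triglyceride, had levels of 0.60 and 1.03 before and 3.40 and 3.99 after. This was a rise of 2.88 ± 0.27, or 7.36-fold (adjusted p = 0.00385, limma), and the other enzyme of that step, Dgat1, rose from -1.46 and -1.28 to -0.34 and -0.41 (1.00 ± 0.18). Abhd5, the activator of the lipase that breaks triglyceride down, rose by 1.49 ± 0.16, from 1.88 and 2.08 to 3.43 and 3.51. Fitm2, which helps droplets bud, went from -3.19 and -3.15 to -1.68 and -1.79. Lpin1 and Gpam, enzymes earlier in the pathway, rose by 0.92 ± 0.24 and 0.72 ± 0.18. With the 4 WT arrays alone neither passed (adjusted p = 0.0958 and 0.0807, limma), and 4 of the 22 rose. Plin5, a droplet coat protein, came up from background (-6.60 and -7.77 before, -4.26 and -4.28 after, at least 3.12-fold). Plin2 and Plin3, the droplet proteins of most cell types, were bright on all 4 arrays, with changes of -0.13 each. With day -2, 0, +2 or +4 left out in turn, 2, 4, 2 and 1 of the 22 rose, and Dgat2 passed under all 12 alternative settings run for it, between 2.59 and 3.17.

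**Figure D3:**
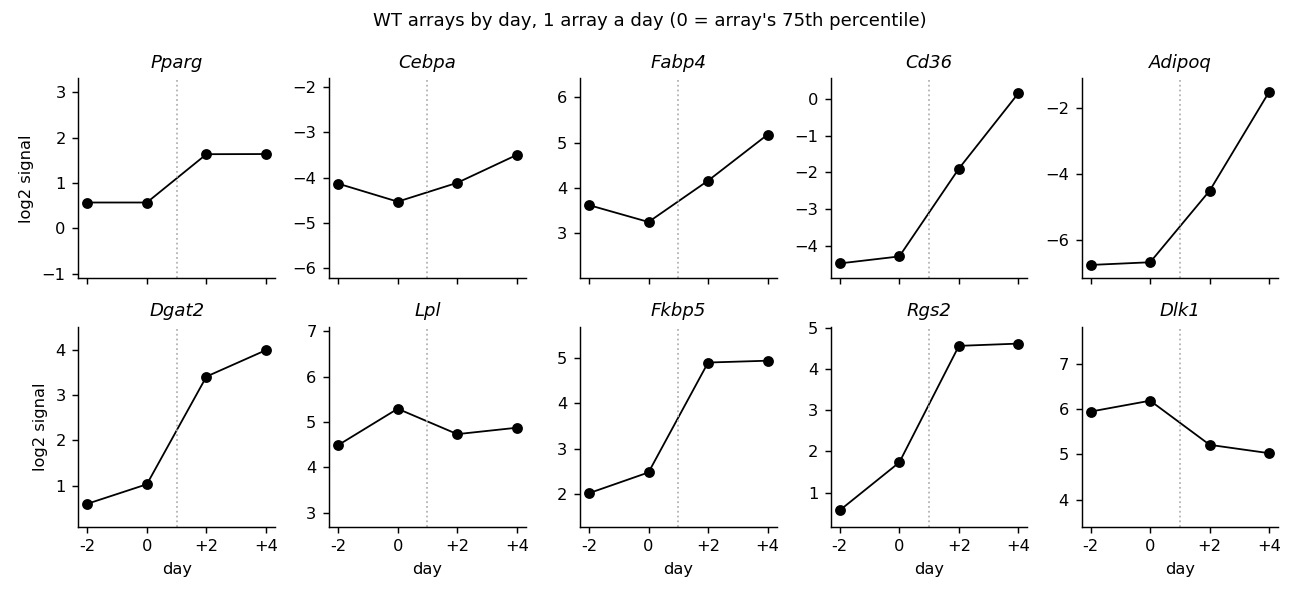
Levels of Pparg, Cebpa, Fabp4, Cd36, Adipoq, Dgat2, Lpl, Fkbp5, Rgs2 and Dlk1 on the 4 WT arrays by day (vertical axes log2 relative to the array's 75th percentile and of different range, 1 array for each point, dotted line between the periods). Cd36 and Adipoq climb again from day +2 to day +4 (-1.90 to 0.15 and -4.51 to -1.5), while Pparg and Fkbp5 are level between these days.

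Enzymes of fatty acid synthesis did not follow as a group. Of 19 compared, 2 rose, none fell and the median change was -0.07. Besides Srebf1 this was Pcx, pyruvate carboxylase, which went from 2.01 and 1.71 to 3.46 and 4.04 (1.89 ± 0.28, 3.70-fold). Fasn, fatty acid synthase, stood at -2.6 and -3.12 before and -3.08 and -2.77 after, and Acly and Acaca, which supply its building blocks, changed by -0.36 and -0.28 without passing. Scd1, the desaturase named among early fat cell genes, was lowest on day 0, at 0.12, -1.3, 0.20 and 0.20.

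Calls among mitochondrial and sugar genes stand beside 6.92% higher and 5.65% lower among all genes compared, and nothing particular to these lists is read from their counts. Pcx also belongs to the 22 genes of the citrate cycle and pyruvate entry, of which 2 rose and none fell (median change 0.34). The other was Mpc2, a subunit of the carrier that brings pyruvate into mitochondria, which went from 2.47 and 2.75 to 3.73 and 3.93 (1.22 ± 0.17). Of 22 genes of glucose uptake, glycolysis and the pentose phosphate pathway only Aldoc, an aldolase, rose, from -1.92 and -2.30 to -0.59 and -0.63 (1.5 ± 0.18). These 3 calls were made without each of days -2, 0 and +2, and none was made without day +4. Among 33 respiratory chain subunits none was called by limma and none had an unadjusted p under 0.05, with changes from -0.19 to 0.40. Of 23 genes of fatty acid oxidation 1 passed: Cpt1a, the gate of fatty acid entry into mitochondria, fell by 1.58 ± 0.26, from 0.75 and 0.25 to -0.86 and -1.3, and it passed without day 0 and without day +2 only. The thermogenic list held 1 call of 13, Dio2, the enzyme that activates thyroid hormone, at -4.62 and -4.23 before and -2.74 and -2.82 after (1.65 ± 0.24), lost without day +2 and without day +4.

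Genes of cholesterol synthesis gave no call in the comparison of periods and were lower on day 0 than on day -2. No gene of 24 was called by limma and none had an unadjusted p under 0.05, and the median change was -0.25. From day -2 to day 0 the median fell by 1.39, with 18 of the 24 at least 1 log2 unit lower on day 0. Idi1, an isomerase of the pathway, stood at 4.51 on day -2, 2.55 on day 0, 3.32 on day +2 and 3.21 on day +4. Without day -2 its change turned from -0.26 to 0.72, and no call was made in the list with any 1 array left out. The model with a term for each day, shared by both lines, called 1 of the 24 higher and 4 lower.

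Several known targets of the glucocorticoid receptor rose. Of 22 compared, 9 rose and none fell, with a median change of 0.80 beside 0.10 for all genes. Both later arrays lay above both earlier ones for 17 of them, beside 37.1% of all genes compared. Fkbp5, a co-chaperone of the receptor, had levels of 2.02 and 2.48 before and 4.90 and 4.94 after, a rise of 2.67 ± 0.22 or 6.37-fold (adjusted p = 0.00308, limma). Tsc22d3, the leucine zipper protein GILZ, went from 2.93 and 3.59 to 5.47 and 5.95 (2.46 ± 0.46). Glul, glutamine synthetase, went from -0.72 and -0.28 to 2.35 and 2.68 (3.02 ± 0.36). All 3 were level between the 2 later days to within 0.5. Errfi1, an inhibitor of the EGF receptor, rose by 2.32 ± 0.25 from 3.12 and 3.06 to 5.30 and 5.53. Ddit4, an inhibitor of the growth kinase complex mTORC1, rose by 1.85 ± 0.18 from 3.48 and 3.68 to 5.36 and 5.49. Cyb561, a membrane cytochrome, rose by 3.25 ± 0.26 from -3.42 and -2.96 to -0.16 and 0.27. The other 3 were Sult1a1, Lcn2 and Map3k6. 

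Of the 9 genes, 5 were already above the 75th percentile on both earlier arrays. The receptor gene Nr3c1 stood at 3.78 and 4.49 before and 3.80 and 3.83 after. Sgk1, a kinase gene that the receptor induces, stood at 3.43 and 2.02 before and 2.43 and 2.68 after and did not pass, and neither did Dusp1, Klf9 and Per1. Zbtb16, a strongly steroid-responsive repressor, changed by 1.88 ± 0.68 in WT and did not pass (adjusted p = 0.119, limma). When day -2, 0, +2 or +4 was left out in turn, 5, 7, 5 and 3 of the 22 rose, and with a term for each day 14 did. Fkbp5, Ddit4 and Cyb561 passed under all 12 alternatives.

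Genes tied to cyclic AMP gave calls chiefly among the phosphodiesterases, the enzymes that remove it. Of 17 compared, 4 rose and 1 fell, with a median change of 0.20. Pde3b, the insulin-regulated phosphodiesterase of fat cells, went from 0.35 and 0.49 to 2.52 and 2.64 (2.16 ± 0.17, 4.47-fold). Pde4b went from -2.13 and -3.51 to 0.14 and -0.06 (2.86 ± 0.52) and Pde4d from -1.71 and -1.71 to -0.39 and -0.82 (1.11 ± 0.21). Pde4a, by contrast, fell by 0.74 ± 0.15, from 0.30 and 0.38 to -0.38 and -0.41. Rgs2, which dampens G protein signals, had the largest change of the list, from 0.57 and 1.73 to 4.56 and 4.61 (3.44 ± 0.55). The early CREB targets Nr4a1, Crem and Fosl2 changed by 1.13, 0.30 and 0.43 and did not pass. Without day -2, 0, +2 or +4 in turn 2, 3, 1 and 1 rose, and Pde4a was not called under any of these.

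Among insulin and IGF-1 signalling genes a docking protein and an adaptor fell, and 3 IGF-binding proteins came up from or near background. Of 16 genes above background before, 2 fell and none rose. Irs1, the main docking protein of the insulin and IGF-1 receptors, went from 3.21 and 3.17 to 1.70 and 1.77, a fall with a change of -1.46 ± 0.16. Grb14, an adaptor that inhibits the insulin receptor, went from 4.58 and 4.06 to 3.36 and 3.24 (-1.01 ± 0.22). The receptors Insr and Igf1r changed by 0.42 and -0.42 and did not pass. Igfbp5, a binding protein of IGFs, came up from background (-8.38 and -5.91 to -2.65 and -1.98, at least 12.1-fold higher). Igfbp3 did so too, from -6.13 and -5.91 to -4.48 and -4.11, and Igfbp2, above background on 1 earlier array, rose by 2.43 ± 0.31. The model with a term for each day called 2 of the 16 higher and 2 lower. With day -2, 0, +2 or +4 left out in turn, 1, 2, 1 and 0 of the 16 fell.

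Of 38 interferon response genes compared, 17 fell and none rose, with a median change of -1.85. Both later arrays lay below both earlier ones for 34 of them, beside 25.7% of all genes compared. Of the 17, 15 were at or above the 75th percentile on both earlier arrays. Interferon response genes are switched on when interferon or viral RNA is sensed, through a factor that binds a promoter element with the core GAAANNGAA. The stretches of 160 bases before the start of 4 of the genes that fell, from RefSeq promoter windows of GRCm38.p6, are given 5′ to 3′ on the strand of the gene, with GAAANNGAA, read on either strand, in capitals. They are Ifit3 (chr19:34583369-34583528, plus strand), Ifit1 (chr19:34640729-34640888, plus strand), Irgm1 (chr11:48871421-48871580, minus strand) and Gbp2 (chr3:142620503-142620662, plus strand).
Ifit3: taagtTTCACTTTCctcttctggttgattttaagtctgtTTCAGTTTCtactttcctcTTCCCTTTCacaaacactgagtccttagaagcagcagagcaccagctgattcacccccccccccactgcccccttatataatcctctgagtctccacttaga
Ifit1: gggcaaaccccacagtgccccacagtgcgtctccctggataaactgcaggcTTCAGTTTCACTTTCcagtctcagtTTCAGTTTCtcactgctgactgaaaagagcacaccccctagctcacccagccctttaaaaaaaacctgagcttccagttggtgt
Irgm1: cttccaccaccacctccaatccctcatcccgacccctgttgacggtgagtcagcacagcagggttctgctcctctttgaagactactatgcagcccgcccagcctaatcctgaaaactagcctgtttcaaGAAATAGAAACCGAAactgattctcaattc
Gbp2: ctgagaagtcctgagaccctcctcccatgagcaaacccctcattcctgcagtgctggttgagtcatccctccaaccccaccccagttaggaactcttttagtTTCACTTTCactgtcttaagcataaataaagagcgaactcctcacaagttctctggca
Ifit3 and Ifit1 hold 3 matches each, the first 2 of Ifit1 overlapping, Irgm1 holds 2 overlapping ones and Gbp2 holds 1, at 58 bases before the start. In windows of 250 bases before to 50 bases after the start, searched on both strands, 9 of the 14 called genes with a window (64.3%) held a match, as did 11 of the 17 that were not called (64.7%), against 9.76% of the 27025 genes with a window. Among all genes called lower it was 14.0% and among those called higher 7.80%. The motif was chosen after the values were seen, and a match is a description of the sequence only.

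Ifit3, an RNA-binding antiviral protein, had levels of 4.82 and 5.69 before and 1.20 and 1.09 after, a change of -4.11 ± 0.72 or 17.2-fold (adjusted p = 0.0167, limma). Its near-identical neighbour Ifit3b, whose probes may share transcripts with it, changed by -4.17 ± 0.85. Ifit1, which binds uncapped viral RNA, went from 4.47 and 4.99 to 2.2 on day +2 and 0.73 on day +4 (-3.27 ± 0.59). Irgm1, a GTPase of immunity within cells, went from 2.72 and 2.85 to 0.50 and -0.29 (-2.68 ± 0.34), and Gbp2, a guanylate-binding protein, from 0.55 and 0.63 to -1.03 and -1.55 (-1.88 ± 0.34). In all 4 genes day 0 was the highest array, and in each day +4 was the lowest. Parp14, Gbp3, Oasl2 and Usp18 fell by 2.84, 2.95, 2.70 and 2.56. Isg15, the ubiquitin-like modifier, stood at 5.30 and 5.99 before and 4.25 and 3.34 after, and its -1.85 ± 0.54 did not pass (adjusted p = 0.0682, limma). The genes for antigen processing were at the other end: Psmb8, Psmb9, Tap1 and B2m changed by -0.40, -0.21, -0.42 and -0.41 and did not pass.

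The day-to-day spread sets how many of the 38 pass. At an unadjusted p under 0.05, 30 were lower. When day -2, 0, +2 or +4 was left out in turn, 2, 1, 9 and 0 fell, and with a model that gives each day its own term 32 did, while the median lay between -2.25 and -1.44 in all of these. In sh8 the median change of the same genes was -1.56.

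**Figure D4:**
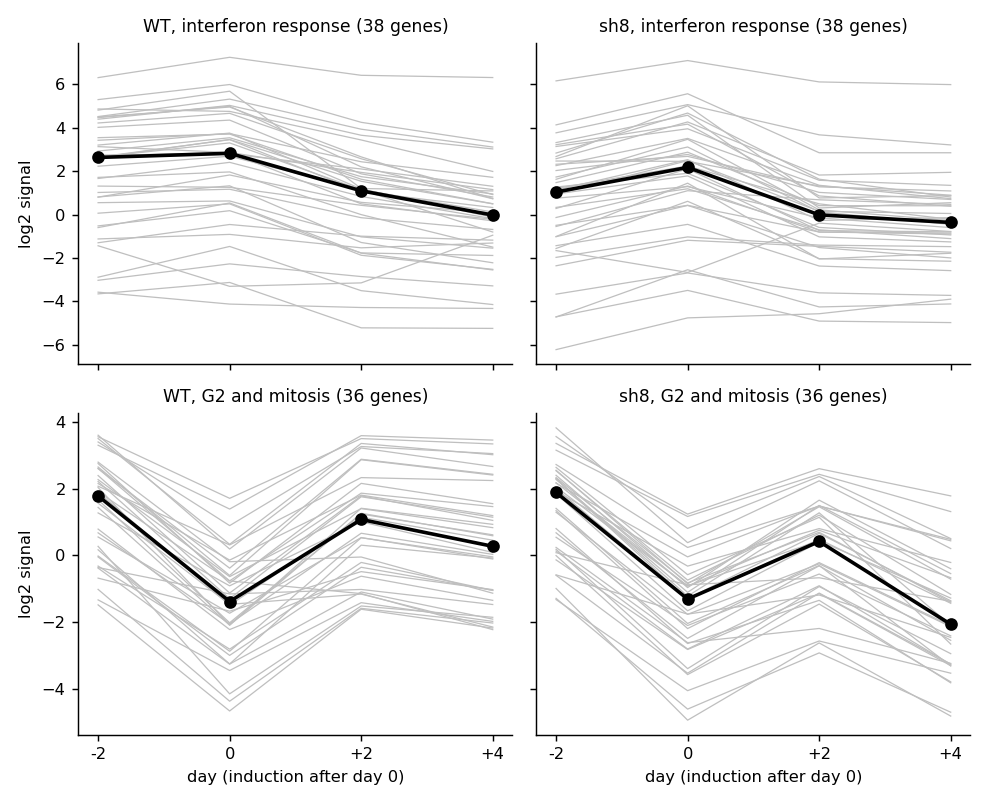
Levels of the interferon response genes and of the G2 and mitosis genes on the WT and sh8 arrays by day (log2 relative to the array's 75th percentile, thin lines for genes, thick line for the median). The interferon genes are lower on days +2 and +4 in both lines (median WT change -1.85), and the mitosis genes drop at day 0 and rise again at day +2 (median steps of -2.99 and 2.63 in WT).

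Other inflammatory genes split. Of 25 chemokines and inflammation genes 3 rose and 1 fell, beside 6.92% and 5.65% of all genes compared. Their median change was 0.24, and nothing particular to the list is read from these counts. Il1rn, the antagonist of the interleukin-1 receptor, went from -3.30 and -3.56 to -0.36 and -0.28 (3.11 ± 0.20, 8.64-fold). Tnfaip6, a hyaluronan-binding protein with anti-inflammatory action, went from -0.44 and -0.22 to 2.26 and 2.15 (2.53 ± 0.22). Lcn2, lipocalin 2, was bright before (4.65 and 4.81) and brighter after (5.71 and 5.65). Cxcl10, a chemokine that interferon induces, fell by 2.23 ± 0.53, from 3.38 and 3.42 to 1.77 and 0.57. Il6 stood at 1.86 and 0.53 before and 3.51 and 2.81 after and did not pass (adjusted p = 0.0688, limma). Il1rn and Tnfaip6 are also made by leukocytes, whose marker sum rose over the same days, mostly through Ear2, and that part was not tested. Without each array in turn 2 of the 25 rose, and 1 fell without day 0 and none without the others.

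Matrix genes gave calls in both directions, beside 6.92% higher and 5.65% lower among all genes compared. Nothing particular to the matrix lists is read from their counts. Of 21 fibrillar collagen and crosslinking genes 2 rose: Plod2, a lysyl hydroxylase, from -1.10 and -0.48 to 0.75 and 0.91 (1.62 ± 0.31), and Col5a3, a collagen V chain, from -0.22 and 0.32 to 1.06 and 1.34 (1.15 ± 0.22). Col1a1 was level at 6.84 and 7.0 before and 6.88 and 6.93 after. Of 19 basement membrane and collagen VI genes, Lama2 (1.58 ± 0.28) and Col4a1 (0.99 ± 0.20) rose. Col8a1, a short-chain collagen, fell by 2.90 ± 0.34, from 1.5 and 0.57 to -1.61 and -2.11. The median change of the basement membrane list was 0.64.

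Elastic fibre and matricellular genes gave 4 falls and 1 rise among 27 (5.65% and 6.92% among all genes compared). Mfap5, a microfibril protein, fell by 2.32 ± 0.23, from 0.30 and 0.43 to -2.14 and -1.76, and Thbs1, thrombospondin 1, by 2.34 ± 0.26, from 5.67 and 5.08 to 3.14 and 2.94. Fbln5 and Ccn3 fell by 1.6 ± 0.28 and 1.65 ± 0.26. Fbn2, fibrillin 2, rose by 2.22 ± 0.23, but its other probe changed by -1.42, so the gene has no single direction. Among 21 proteases and inhibitors, Adamts5, an aggrecan-cleaving protease, fell by 3.03 ± 0.50, from 0.00 and 0.37 to -2.64 and -3.05, while its other probe changed by -1.54. Mmp23 fell by 1.57 ± 0.15, and Timp4, a metalloproteinase inhibitor, rose by 1.85 ± 0.24. 

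Smooth muscle actin and 2 actin-binding genes fell. Of 19 compared 3 fell and none rose, with a median change of -0.57. Both later arrays lay below both earlier ones for 15 of them, beside 25.7% of all genes compared. Acta2, smooth muscle actin and a mark of contractile fibroblasts, had levels of 4.86 and 3.43 before and 0.74 and 0.55 after, a change of -3.50 ± 0.64 or 11.3-fold. Part of that fall lay before induction, since day 0 was 1.43 below day -2. Cnn2 and Tpm1, which bind actin filaments, changed by -1.46 ± 0.23 and -1.26 ± 0.29, though another probe of Cnn2 changed by -0.30 and 4 others of Tpm1 by between -1.24 and 0.13. Myl9, a myosin light chain, changed by -2.34 ± 0.72 and did not pass (adjusted p = 0.0781, limma). Without day -2, 0, +2 or +4 in turn 1, 5, 0 and 0 contractile genes fell. The fibrillar collagen rises numbered 0, 2, 0 and 0, those of the basement membrane 1, 5, 0 and 0, and the elastic fibre falls 4, 5, 3 and 2. Among the proteases the rises numbered 1, 2, 1 and 0 and the falls 1, 2, 1 and 1. Mfap5, Fbn2 and Mmp23 passed under all 12 alternatives, but none of these used the other probe of Fbn2, which changed by -1.42.

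Markers of the undifferentiated cell gave 1 fall and 1 rise among 27 (5.65% and 6.92% among all genes compared). Nothing particular to them or to the Wnt and BMP genes is read from the counts. Dlk1, the preadipocyte factor Pref-1, was very bright and fell by 0.95 ± 0.20, from 5.94 and 6.19 to 5.21 and 5.03, and its other probe changed by -1.24. Cd44, a hyaluronan receptor, rose by 0.73 ± 0.18 by the probe used, while its 3 other probes changed by -2.09, -0.15 and 0.21. Among 32 Wnt and BMP genes, which restrain and promote fat cell formation respectively, 4 fell and 1 rose. Grem1, a BMP antagonist, fell by 1.71 ± 0.27, from 3.16 and 3.05 to 1.58 and 1.20. Fzd2, a Wnt receptor, and Tcf7l2, a factor at the end of the Wnt pathway, fell by 0.89 ± 0.19 and 0.76 ± 0.16, and other probes changed by -0.69 for Fzd2 and by -0.83 and -0.24 for Tcf7l2. Wnt2 was not well above background after (at least 1.86-fold lower), and the 1 rise was Wnt4, by 0.62. With day -2, 0, +2 or +4 left out in turn, the Wnt and BMP falls numbered 1, 2, 1 and 0 and the rises 0, 2, 0 and 0. For the markers of the undifferentiated cell no fall was called without any 1 array, and 2 rises were called without day 0 and none otherwise.

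Genes of cell division differed between the days within a period, and the comparison of periods gave no call. Among 36 genes of G2 and mitosis none passed in limma and none had an unadjusted p under 0.05, although the median change was 0.89. From day -2 to day 0 the median fell by 2.99, and 34 of the 36 were at least 1 log2 unit lower at confluence. From day 0 to day +2 the median rose by 2.63 (32 of 36 by at least 1), and day +4 was still 2.08 above day 0 (30 of 36), while all 36 were lower on day +4 than on day +2. Without 1 array in turn the median lay between -0.65 and 2.30. In the 45 genes of DNA replication and S phase the steps were -1.45, 1.31 and 1.20, with no call by limma and 2 at an unadjusted p under 0.05. The model with a term for each day, shared by both lines, called 2 of the 36 and 9 of the 45 higher and none lower.

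Promoters of mitotic genes are known to carry shared elements. The CHR element TTTGAA and CCAAT boxes are known sites of the DREAM and NF-Y complexes, which hold such genes down in resting cells and drive them in dividing ones. Of the 30 G2 and mitosis genes with a promoter window, 21 (70.0%) held TTTGAA and 23 (76.7%) held CCAAT on either strand, against 20.2% and 41.1% of all 27025 genes. In the 36 S phase genes with a window it was 16.7% and 61.1%, while the E2F site TTTGGCGC was in 19.4% of them, 0.585% of all genes and none of the 30. This search was added after the values were seen. The 160 bases before the start of Cdk1 (chr10:69352913-69353072, minus strand) and Mki67 (chr7:135716380-135716539, minus strand) show the 2 elements in capitals (TTTGAA, and CCAAT or its complement ATTGG, 5′ to 3′ on the strand of the gene).
Cdk1: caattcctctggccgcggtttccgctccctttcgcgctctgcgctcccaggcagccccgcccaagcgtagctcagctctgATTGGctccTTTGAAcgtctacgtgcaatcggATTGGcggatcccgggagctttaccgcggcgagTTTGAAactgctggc
Mki67: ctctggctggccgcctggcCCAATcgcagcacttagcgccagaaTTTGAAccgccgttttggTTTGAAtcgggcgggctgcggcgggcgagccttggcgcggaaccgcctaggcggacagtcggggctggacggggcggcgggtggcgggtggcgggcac
Cdk1, the kinase that starts mitosis, had levels of 3.31 on day -2, 1.39 on day 0, 3.59 on day +2 and 3.46 on day +4. Ccnb1, its cyclin, stood at 2.6, -0.38, 2.89 and 2.43. Mki67, which codes for the proliferation marker Ki-67 and holds both elements too, did not come back: it stood at 2.61, -0.77, -1.15 and -2.23, and its other probe changed by -2.55. Kif20b and Cenpe, with levels of -1.16 and -2.15, and -0.05 and -1.14, after induction, were the other G2 and mitosis genes with a change under -1. In sh8 the median mitotic steps from day 0 were 1.70 to day +2 and -0.15 to day +4, where none of 36 stood 1 above day 0. This difference between the lines rests on 1 array each and was not tested.

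Among brakes on the cycle, Cdkn2d, an inhibitor of CDK4 and CDK6, rose by 0.92 ± 0.16, from 2.62 and 2.50 to 3.39 and 3.58. Gadd45b, a stress gene, fell by 1.32 ± 0.27, from 1.53 and 0.91 to -0.07 and -0.12. Cdkn1a, the p53 target p21, changed by 0.09 ± 0.22, which was -0.18 without day -2, and its other probe by -1.28. These 2 were the calls among 23 genes of the list, and without day 0 2 fell and none rose, with none called without any other array.

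Among stress genes 3 chaperones fell and another came up from background. Of 24 unfolded protein and integrated stress response genes and 34 ribosomal protein genes none was called by limma (1 and none at an unadjusted p under 0.05), with changes from -0.50 to 0.55 and from -0.31 to 0.40. Of 18 cytosolic heat shock chaperones 3 fell. Cryab, αB-crystallin, went from 3.40 and 2.89 to 0.74 and 1.04 (-2.26 ± 0.27), with -1.19 by its other probe. Hsp90aa1, the inducible HSP90, went from 5.91 and 5.76 to 4.85 and 4.61 (-1.11 ± 0.20), and Hspa1a changed by -0.78 ± 0.19. Hspb1, the small heat shock protein HSP27, was at background before (-7.27 and -6.03) and at -1.93 and -1.2 after, at least 20.4-fold higher. The constitutive Hsp90ab1 was level, at 6.71 and 6.71 before and 6.67 and 6.78 after. Of 21 immediate early genes only Klf2 passed, and no call was made without day -2, +2 or +4, and 4 falls without day 0. Without each array in turn 1 chaperone fell, and Cryab passed under all 12 alternatives.

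Clock genes gave calls in both directions. Of 17 compared 2 rose and 4 fell, beside 6.92% and 5.65% of all genes compared. Nfil3, a repressor of D-box genes, rose by 1.5 ± 0.19, from 2.50 and 2.13 to 3.85 and 3.77, and Arntl, the core activator BMAL1, by 0.66 ± 0.17. Dbp, an activator at the same D-boxes, went from 1.6 and 2.53 to 0.10 and 0.34 (-1.85 ± 0.47). Nr1d1 and Nr1d2, the REV-ERB repressors, changed by -1.33 ± 0.28 and -1.16 ± 0.21, and Bhlhe41 by -0.80 ± 0.19. The falls were all lost without any 1 of the 4 arrays, and the rises numbered 1, 1, 1 and 0. The labels used here give no hour of harvest. In sh8 the changes of Nr1d1, Nr1d2 and Dbp were 0.91, -0.01 and 0.17, with adjusted p from 0.297 to 0.553 for the difference between the lines (limma). Of 20 amino acid transporters, the glutamine carrier Slc38a3 and the carrier Slc43a2 rose by 1.75 ± 0.30 and 1.47 ± 0.36, and Slc38a4 fell by 1.51 ± 0.25. When day -2, 0, +2 or +4 was left out in turn, the transporter rises numbered 0, 1, 0 and 0 and the falls 0, 1, 1 and 0.

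**Figure D5:**
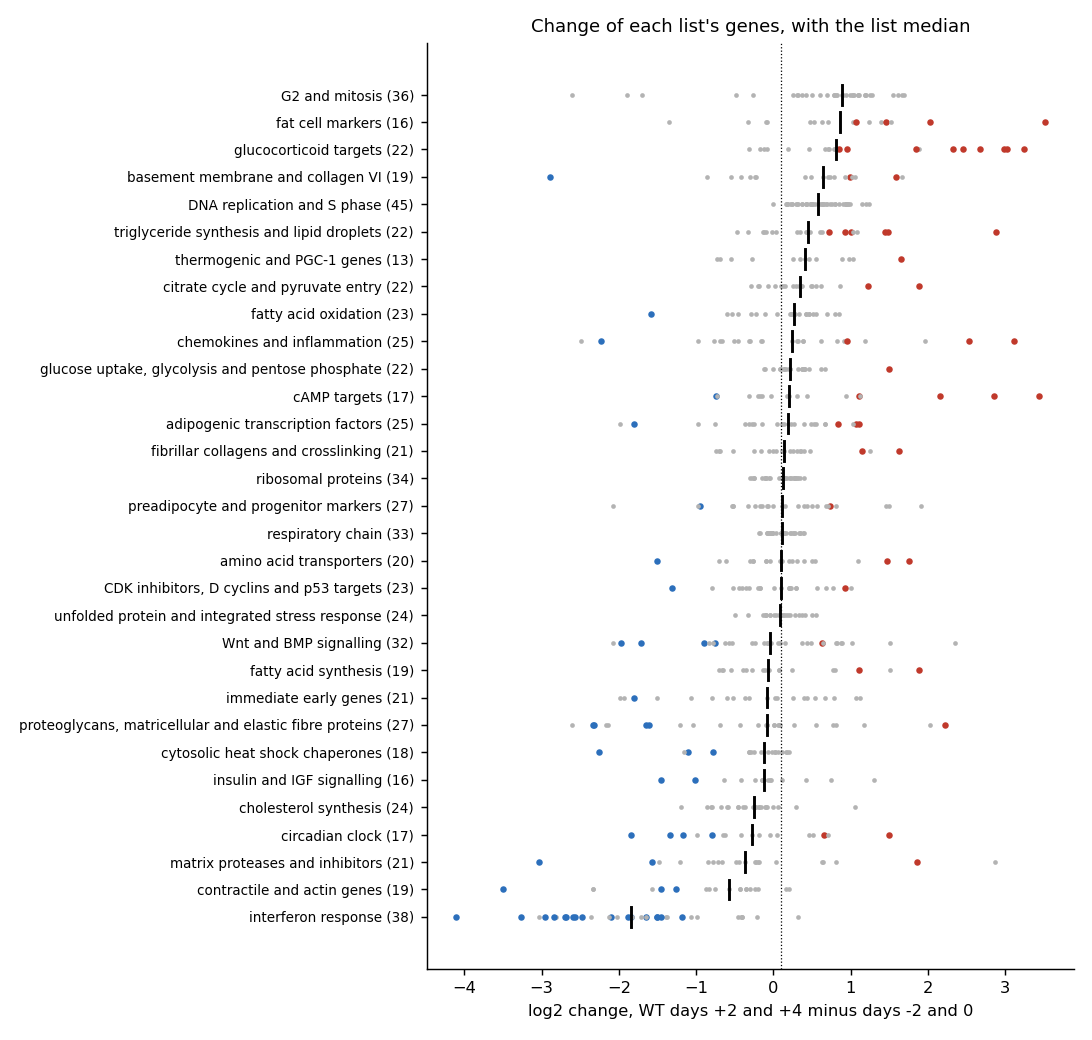
Change of each gene (log2, after minus before) in the 31 lists in WT, with a bar at the median of each list, genes called higher in red and lower in blue, and a dotted line at the median of all genes compared. The interferon response has the lowest median (-1.85), and the median over the 20824 genes compared is 0.10.

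The genes with the largest rises were mostly those of lung and blood. Ear1, Ear2 and Ear10, near-identical eosinophil-associated ribonucleases made by lung macrophages and eosinophils, rose by 7.19, 6.78 and 5.38, and Sftpa1 and Scgb1a1, secreted by alveolar and airway cells, by 5.70 and 4.80. Hba-a1, α-globin, and H2-Ab1, an MHC class II chain, rose by 4.55 and 4.32. Wfdc21 and Pi15 rose by 4.85 and 4.20, and Map7d2 by 5.40, though another probe of Map7d2 changed by 0.49. Among genes that came up from background the largest bounds were those of Sftpc (146-fold), Retnla (47.7), the β-globins Hbb-b2 (39.0) and Hbb-bt (30.3), H2-Eb1 (29.1), Ramp2 (24.3), Wfdc2 (24.1), Hspb1 (20.4), Ptprb (20.4) and Clic5 (15.8), each by the probe used. Other probes of Wfdc2 and Ptprb changed by 7.11 and 2.01. Of the 1754 genes in that class 1002 were called, 671 of them named. All were chosen as at background before and above it after, so this count is no test of a rise.

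Among genes at or above the 75th percentile before induction the largest rises were of another kind. These were chosen after the values were seen. Rgs2, Dgat2, Fkbp5, Tsc22d3, Errfi1 and Pde3b have been given. Ctla2a and Ctla2b, protease inhibitors of near-identical sequence, rose by 2.41 ± 0.28 and 2.78 ± 0.34, Ctla2a from 3.05 and 3.37 to 5.54 and 5.70. Hp, haptoglobin, the haemoglobin-binding plasma protein that fat cells also make, went from 2.98 and 3.27 to 5.54 and 5.59 (2.44 ± 0.54). Kyat1, an aminotransferase of the kynurenine pathway, rose by 2.36 ± 0.40, Ccdc71l by 2.32 ± 0.42 and Gprc5b, an orphan receptor, by 2.30 ± 0.30.

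The largest falls joined interferon genes with others. Mlana, a melanosome protein, went from -0.96 and 0.10 to -4.98 and -4.94 (-4.53 ± 0.60). Gvin1 and Samd9l, both interferon-inducible, changed by -4.05 ± 0.66 and -3.42 ± 0.52, and their other probes by -2.37 and -3.43. Zfp994, a zinc finger gene, went from 0.99 and 1.29 to -2.48 and -3.22 (-4.00 ± 0.41), and its other probe changed by -2.72. Kcnq1ot1, the imprinted antisense transcript of the Kcnq1 gene, went from 0.71 and 0.57 to -2.87 and -3.09 (-3.63 ± 0.39), with -4.44 by its other probe. Gpr176, an orphan receptor, changed by -3.81 ± 0.50, 1810046K07Rik by -3.45 ± 0.58, and Gsto2, a glutathione transferase, by -2.89 ± 0.19. Among genes that fell to background the largest bounds were P2ry12 (at least 7.92-fold lower), Resp18 (6.93), Olfr1330 (6.79), Abca6 (6.62) and Ppy (6.43), all dim before, with levels between -3.16 and -3.98.

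No gene passed the test of a difference between the changes of WT and sh8. The difference of the 2 changes passed in 0 of the 20824 genes (0%), with a lowest adjusted p of 0.0714 (limma) and 1522 at an unadjusted p under 0.05. Quantile normalization and the normexp correction gave 1 gene each, Rab12 and Olfr1413. Of the 1441 genes that rose in WT, 98.6% were above 0 in sh8 and 741 (51.4%) were called higher there too. Of the 1176 that fell, 88.9% were below 0 in sh8 and 272 (23.1%) were called lower, and 7 genes were called in opposite directions in the 2 lines. In sh8 itself 1213 of the 20824 were higher and 520 lower, the base for the calls shared by both lines. The 98.6% and 88.9% are given without the same share over all genes compared, and nothing is read from them. Zfp994 and Kcnq1ot1 are examples of a smaller fall in sh8, by 1.08 and 1.19 against 4.00 and 3.63, with adjusted p of 0.355 and 0.365 for the difference (limma). Both lines' later arrays share the scan and the lung transcripts, so likeness of the lines over these days does not separate the period from either.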

How the data were processed

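RNA of WT and sh8 3T3-L1 cells of days -2, 0, +2 and +4 was hybridised to 8 one-colour Agilent arrays, 1 for each line and day. The deposited scanner files hold the processed intensity of each spot and its flag for well above background, made with Agilent Feature Extraction per the file headers, and the arrays' number limits the precision. The series text names another array maker than the file headers do. The authors' deposited value table holds log2 values, with a median of 6.39 on each array and a correlation of 0.994 to 1 with that array's own scanner values, and it served as an alternative.

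Control spots (1377 of 44397) and 46 probes with outlier flags were left out. Processed intensities were put on the log2 scale minus each array's 75th percentile, and 1 probe for each gene (the one with the highest mean) was kept among probes well above background on at least 2 of 8 arrays. The 8 arrays were fitted as 4 means (line by period) in limma 3.58.1 (R 4.3.3), with adjusted p-values (Benjamini-Hochberg) over all 26461 genes and transcripts and a threshold of 0.05. Days stand in for replicates. The fit was tested on simulated data. A gene at background in a period has only a bound, set against the lowest signal well above background on each array.

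Named genes were the 10 largest rises, falls and rises from background, the 5 largest falls to background, and up to 4 called genes of each of 31 lists (or 2 where none was called). Others were chosen after their values were seen. The members and lists were chosen with earlier results of these data known. Promoter windows are those of RefSeq, GRCm38.p6. Some items are not reported here.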

Additional observations from a re-analysis of the deposited data

How the results depend on the processing

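The 1441 higher and 1176 lower calls became 911 and 826 with the 4 WT arrays alone, 3371 and 2615 with a term for each day, 946 and 1270 with quantile normalization, 1032 and 892 with normexp, 971 and 1306 in the authors' table, and 909 and 941 where a 2-fold change was asked as well. The 1002 calls among genes that rose from background became 618, 208 and 657 with quantile normalization, normexp and the authors' table. The choice of these genes fixed their direction under each setting. No gene can rise from background where all 8 arrays must be above it. The difference between the lines gave 1 gene with quantile normalization and 1 with normexp, and 0 under the other settings that hold both lines. With the 4 WT arrays alone it could not be fitted. Among genes at or above the 75th percentile before, an alternative chosen after seeing the data, 216 rose and 459 fell. Leaving out 1 WT array at a time gave 70 to 717 higher, 63 to 640 lower and 252 to 882 from background. Of the 131 named genes past the threshold, 37 to 90 kept the call in those fits and 32 passed under every setting. The 32 include genes that rose from background, such as Sftpc, Retnla and Hbb-b2, whose choice fixed their direction. These were not tested where all 8 arrays had to be above background. Others of the 32 are lung and blood genes, such as Sftpa1, Scgb1a1 and Hba-a1. The change of Cebpb turned from 0.13 to -0.018 with normexp. Without 1 array the changes ranged from -0.18 to 0.37 for Cdkn1a, -1.25 to 0.72 for Idi1, -0.49 to 0.31 for Lpl and -0.37 to 2.76 for Mcm5. The cause of these shifts was not tested. No paired analysis was possible because all labels carry the same replicate number and no day lies in both periods. The days that the lines share enter the fit with a term for each day, given above. Signal over background limits the dim genes, whose falls end at background.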
